A study of Mus musculus with 4 samples.

Results

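The genes described here are 10 genes of the pineal gland and of photoreceptors, namely *Otx2*, *Crx*, *Neurod1*, *Isl2*, *Tph1*, *Aanat*, *Sag*, *Gngt1*, *Pde6b*, and *Rcvrn*. They were taken by symbol from the 23946 symbols listed in each library, and all 10 were listed. They had been selected on the FPKM pattern over these 4 libraries, in which *Otx2* was high in the sagittal one, so their levels and counts are given as a description and no test was made on them. RNA-seq was done on skeletal stem/progenitor cells from wild-type CD-1 mice at postnatal day 3, with 1 library from each site. The sites were the posterior frontal suture (PF), the sagittal suture (SAG), the coronal suture (COR), and the growth plate (GP) of the tibia. The cells were sorted by FACS as CD51+;CD200+, without the antigens of blood cells (CD45, Ter119), endothelium (Tie2), and other stroma (6C3, CD105, Thy1.1, Thy1.2), and came from many mice. A suture piece held the bone fronts, the suture mesenchyme, the dura mater beneath it, and the periosteum above it. No group carried a treatment or a transgene, and GP served as the reference. In the text, SAG in capitals is the suture and *Sag* in italics is the gene of arrestin.

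Pinealocytes and photoreceptors are related cell types. Both depend on the homeodomain factors Otx2 and Crx, which switch on genes of phototransduction and, in the pineal gland, of melatonin synthesis. Tph1 hydroxylates tryptophan on the way to serotonin, Aanat acetylates serotonin, and Asmt completes melatonin. In mammals the pineal gland no longer senses light, but it keeps parts of the phototransduction machinery. The gland lies at the midline under the skull roof in rodents, and *Otx2* is also a gene of the choroid plexus and of the developing forebrain.

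The promoters of the members are shown because they hold letters that the Otx and Crx homeodomains read, a property that the choice of genes did not use. The sequences are RefSeq windows of 300 bases, 250 before the start of transcription and 50 from it on, and their places in mm9 were found by exact match to that genome. A window was at hand for 8 of the 10 members, as *Aanat* and *Rcvrn* had none, and there were 12 windows because *Otx2* and *Tph1* have several starts. The letters TAATCC, searched on both strands, were found in 4 of the 12 windows, those of *Crx*, *Sag*, *Otx2*, and *Gngt1*, and in 7.06% of all 32841 windows. By gene, this was 4 of 8 members and 8.14% of 27018 genes. In each of the 4 windows the match lay on the strand opposite to the gene, so it reads GGATTA below, and it stands in capitals.
Crx, mm9 chr7:16465255-16465554, minus strand: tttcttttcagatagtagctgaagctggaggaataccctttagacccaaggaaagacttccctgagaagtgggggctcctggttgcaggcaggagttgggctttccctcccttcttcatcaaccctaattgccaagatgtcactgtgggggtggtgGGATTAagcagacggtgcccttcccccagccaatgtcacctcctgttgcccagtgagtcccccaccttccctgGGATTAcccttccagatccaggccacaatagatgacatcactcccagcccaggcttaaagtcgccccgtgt
Sag, mm9 chr1:89700005-89700304, plus strand: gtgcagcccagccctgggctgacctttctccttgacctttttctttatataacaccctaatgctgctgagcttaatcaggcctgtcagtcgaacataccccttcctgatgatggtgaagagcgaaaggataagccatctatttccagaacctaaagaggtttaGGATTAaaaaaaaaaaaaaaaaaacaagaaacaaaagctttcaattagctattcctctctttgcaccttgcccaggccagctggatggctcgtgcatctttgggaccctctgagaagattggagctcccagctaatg
Otx2, mm9 chr14:49284735-49285034, minus strand: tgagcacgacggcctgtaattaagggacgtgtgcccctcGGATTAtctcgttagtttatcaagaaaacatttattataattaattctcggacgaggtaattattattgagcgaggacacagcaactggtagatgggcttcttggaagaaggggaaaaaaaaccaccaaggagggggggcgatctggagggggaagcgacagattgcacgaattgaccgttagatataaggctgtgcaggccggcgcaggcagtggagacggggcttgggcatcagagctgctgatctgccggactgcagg
Gngt1, mm9 chr6:3943758-3944057, plus strand: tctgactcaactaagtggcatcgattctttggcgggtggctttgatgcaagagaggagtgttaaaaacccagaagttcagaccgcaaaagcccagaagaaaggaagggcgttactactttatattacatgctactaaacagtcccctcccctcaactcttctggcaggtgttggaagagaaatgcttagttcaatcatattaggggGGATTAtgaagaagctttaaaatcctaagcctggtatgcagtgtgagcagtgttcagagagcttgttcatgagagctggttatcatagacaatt

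The *Crx* window held 2 matches, beginning 94 and 21 bases before the start. The match of *Sag* began 87 bases before its start, that of *Gngt1* 44 bases, and that of *Otx2* 211 bases before an internal start. No TAATCC was found in the windows of *Tph1*, *Neurod1*, *Isl2*, and *Pde6b*. The LIM homeodomain letters TAATTA were found in windows of 2 members, *Otx2* and *Tph1*, compared with 6.13% of all genes. The letters CAGATG, an E-box that Neurod1 reads, were found for 1 member, *Otx2*, compared with 19.2% of genes. The letters TGACG, the core of the cAMP response element, were found for 3 members, *Otx2*, *Tph1*, and *Isl2*, compared with 23.0% of genes. These are matches of letters and not measured binding sites. *Gngt1* held the TAATCC letters, but its RNA was below 1 FPKM in every library.

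FPKM gives fragments scaled to transcript length and to the mapped fragments of a library, so levels can be compared between genes. The libraries were not of equal depth. From the lowest step of FPKM multiplied by transcript length, over 3493 genes with 1 annotated transcript, PF held 44.3% of the fragments of SAG, COR 91.4%, and GP 83.7%. This estimate takes FPKM as proportional to the fragments of each library. No site was measured again, so the values carry no replicate error. Differences were counted, without a test, at 3-fold or more on the log2(FPKM + 1) scale, and a gene counts as tested when its FPKM reached 1 in any library of the comparison. That scale understates the change of low genes.

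The transcription factor genes *Otx2*, *Crx*, and *Neurod1* and the enzyme gene *Tph1* were the members with the highest RNA levels, and all of them were highest in SAG-CD51+;CD200+ cells. *Aanat*, *Gngt1*, *Pde6b*, and *Rcvrn* stayed below 1 FPKM in every library. Among the members that are photoreceptor effectors, *Sag* alone reached 1 FPKM. The levels of *Gngt1*, *Pde6b*, and *Rcvrn* go against the word photoreceptor in the name of the group. Relative to all 3 other libraries, 5 of the 10 members were at least 3-fold higher in SAG, compared with 2.85% of the 13998 genes tested. The members were picked for this, so nothing is read from that comparison. The filter on low values was passed by 6 members, and not by *Aanat*, *Rcvrn*, *Gngt1*, and *Pde6b*. Of the 6, *Crx*, *Neurod1*, *Sag*, and *Isl2* passed through SAG alone, while *Otx2* also reached 1 FPKM in PF and COR, and *Tph1* in PF.

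*Otx2* (mm9 chromosome 14, 49277354 to 49287319, minus strand), the homeodomain factor at the head of the pineal and photoreceptor programs, was at 168.3 FPKM in SAG, 10.3 in PF, 4.09 in COR, and 0.269 in GP. SAG was 16.3-fold above PF and 41.1-fold above COR by FPKM, and the log2(FPKM + 1) difference from PF was 3.90. In SAG, *Otx2* ranked 481 of the 23946 symbols. It was the only member above 5 FPKM outside SAG, and PF came second.

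*Crx* (chromosome 7, 16451296 to 16465317, minus strand), the photoreceptor and pineal homeodomain factor downstream of Otx2, was at 18.9 FPKM in SAG, 0.548 in COR, 0.0980 in PF, and 0.0104 in GP. COR came second here, at a level 34.5-fold below SAG. By the depth estimate, the PF value stands for about 4.9 fragments and the GP value for about 1 fragment, so no fold is given for them. The order of *Crx* thus differed from that of *Otx2* for PF and COR, at levels carried by few fragments in PF.

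*Neurod1* (chromosome 2, 79292678 to 79296908, minus strand), a helix-loop-helix factor of photoreceptors, pinealocytes, and many neurons, was at 10.9 FPKM in SAG. It was at 0.0702 in PF and 0.0262 in GP, about 3.3 and 2.3 fragments, and is listed at 0 in COR. The log2(FPKM + 1) difference was 3.48 from PF. The gene overlaps *Cerkl* on the same strand, which was at 0.975 FPKM in SAG.

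*Isl2* (chromosome 9, 55386479 to 55393987, plus strand), a LIM homeodomain factor of motor neurons and retinal ganglion cells, was at 1.82 FPKM in SAG and 0.163 in COR, and is listed at 0 in PF and GP. SAG was highest, but the log2(FPKM + 1) difference from COR was 1.28, short of the limit of 1.58. The level in SAG ranked 11083 of the 23946 symbols.

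*Tph1* (chromosome 7, 53902500 to 53927907, minus strand) was at 50.7 FPKM in SAG, 4.27 in PF, 0.763 in COR, and 0.513 in GP. SAG was 11.9-fold above PF and 66.5-fold above COR. After *Otx2*, this was the second-highest level among the members, and the libraries stood in the same order as for *Otx2*. *Aanat* (chromosome 11, 116447746 to 116458994, plus strand), the enzyme whose daily rhythm sets that of melatonin, was at 0.468 FPKM in SAG, about 24.5 fragments by the depth estimate, and is listed at 0 in the other libraries.

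*Sag* (chromosome 1, 89700255 to 89741733, plus strand), the arrestin that binds activated rhodopsin, was at 6.51 FPKM in SAG, 0.548 in PF, 0.310 in COR, and 0.101 in GP. SAG was 11.9-fold above PF and 21.0-fold above COR. *Sag* was the only member acting in the phototransduction cascade itself that reached 1 FPKM.

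*Gngt1* (chromosome 6, 3943797 to 3947436, plus strand), the gamma subunit of rod transducin, was at 0.679 FPKM in PF and 0.203 in SAG and is listed at 0 in COR and GP. *Pde6b* (chromosome 5, 108817410 to 108861416, plus strand), a catalytic subunit of the rod phosphodiesterase, was at 0.174 FPKM in PF and 0.00980 in GP, about 8.3 and 0.9 fragments, and is listed at 0 in SAG and COR. For both genes PF, the shallowest library, was highest. *Rcvrn* (chromosome 11, 67508828 to 67516835, plus strand), the calcium sensor recoverin of photoreceptors, is listed at 0 in all 4 libraries. In SAG, 1 fragment on its transcript would stand for about 0.0249 FPKM, and an exact 0 can also be a failed estimate.

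**Figure D1:**
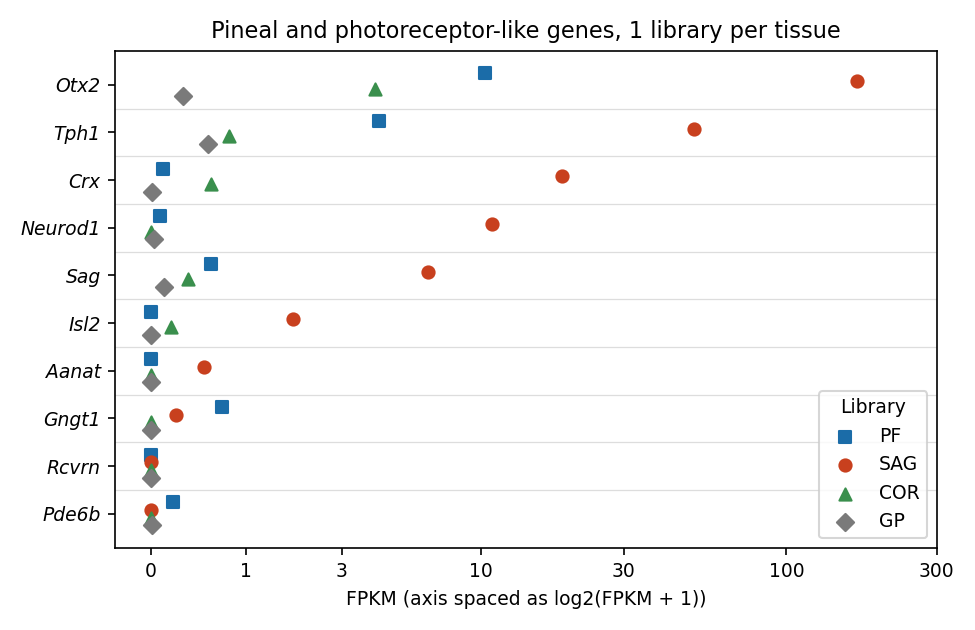
FPKM of the 10 members (y axis, ordered by level in SAG) in the PF, SAG, COR, and GP libraries, 1 point per library, on an axis spaced as log2(FPKM + 1). SAG is highest for 7 genes, from *Otx2* at 168.3 to *Aanat* at 0.468, while *Gngt1*, *Rcvrn*, and *Pde6b* stay below 1 FPKM in all 4 libraries.

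Levels in SAG ran, from high to low, *Otx2*, *Tph1*, *Crx*, *Neurod1*, *Sag*, *Isl2*, *Aanat*, and *Gngt1*, with *Pde6b* and *Rcvrn* at 0. Without replicates it cannot be said which neighbours in this order differ. Compared in pairs, the same 5 members were at least 3-fold higher in SAG than in PF, in COR, and in GP. Over all genes the corresponding percentages were 9.04% of 13490 genes for PF, 6.15% of 12720 for COR, and 4.8% of 12929 for GP. The 3 comparisons share the SAG library. In bulk samples, fewer cells of a type and less RNA per cell cannot be told apart.

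The other regulators of the pineal gland and retina were read from a list of 28 transcription factor genes, 24 of them not members. Of these 24, 11 reached 1 FPKM in at least 1 library. Of the 11, 8 were at least 3-fold higher in SAG than in all 3 other libraries, compared with 2.85% of all genes tested. None was at least 3-fold lower. The median log2(FPKM + 1) difference from the highest other library was 3.21 over those 11 genes, compared with -0.35 over all 13998 genes tested. *Otx1*, *Lhx3*, *Isl1*, *Rorb*, and *Insm1* passed the filter through SAG alone, and the list was chosen with earlier results known. Nothing is therefore read from the count of 8 or from this median. *Neurod4*, a helix-loop-helix relative of *Neurod1*, was at 140 FPKM in SAG, 3.35 in PF, 3.16 in COR, and 0.260 in GP. *Bsx*, a homeobox gene of the pineal gland and hypothalamus, was at 115 FPKM in SAG, 11.6 in PF, 4.09 in COR, and 0.236 in GP. Both stood close to *Otx2* in level, and both shared its order of libraries.

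*Lhx9*, a LIM homeobox gene of the developing pineal gland and limb, was at 60.3 FPKM in SAG, against 3.55 in GP, its second-highest library. *Pax6*, needed for the eye and the pineal gland to form, was at 41.6 FPKM in SAG, 1.11 in COR, 0.541 in PF, and 0.0356 in GP. The next in level were *Otx1*, a relative of *Otx2*, at 12.2 FPKM in SAG, against 0.115 in GP, and *Insm1*, a factor of neuroendocrine precursors, at 5.62 in SAG and 0.0378 in COR.

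*Nrl*, the rod determinant, and *Nr2e3*, its partner in rods, are listed at 0 in SAG, as are *Pax4* and *Six6*. *Rorb*, a nuclear receptor also needed for rods, was at 2.82 FPKM in SAG, 0.165 in PF, 0.0703 in GP, and 0.0161 in COR and was among the 8 genes counted as higher, and *Prdm1* was at 0.301 in SAG. *Rax*, a gene of the early eye field and pineal gland, was at 2.70 FPKM in PF and 0.326 in SAG, the opposite order. *Lhx4* and *Lhx3* were at 0.501 and 1.51 FPKM in SAG and are listed at 0 elsewhere.

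**Figure D2:**
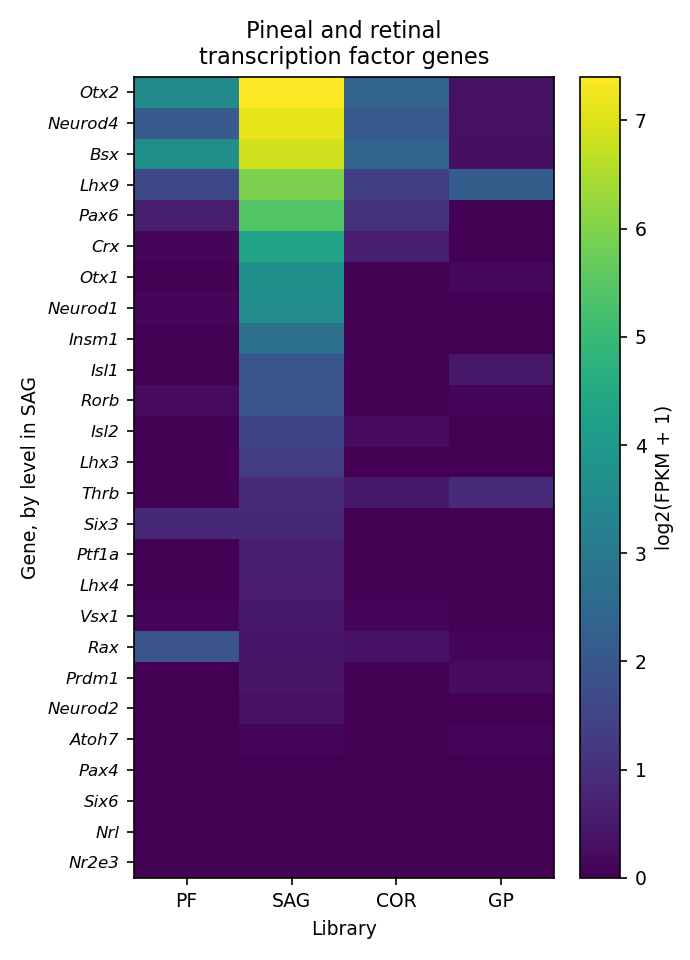
log2(FPKM + 1) of 26 of the pineal and retinal transcription factor genes (rows, ordered by level in SAG) in the 4 libraries (columns, 1 library each). The SAG column holds the high values, led by *Otx2*, *Neurod4*, and *Bsx*, and PF and COR show low values of those genes.

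Most listed genes of the phototransduction cascade stayed below 1 FPKM in every library. Of the 31 listed genes that are not members, 13 reached 1 FPKM in at least 1 library. Of these 13, 2 were at least 3-fold higher in SAG than in all others, compared with 2.85% of all genes tested. The median difference from the highest other library was -0.30 on the log2(FPKM + 1) scale, compared with -0.35 over all genes tested. It includes genes at like levels in every library, such as *Gnb1*, at 167 FPKM in SAG, 165 in PF, 205 in COR, and 162 in GP. *Gnat2*, *Pde6g*, *Rgs9*, and *Pdc* passed the filter through SAG alone, so nothing is read from the count of 2 or from this median. The 2 genes were *Gnb3*, the beta subunit of cone transducin, at 26.4 FPKM in SAG, 5.61 in PF, 0.652 in COR, and 0.130 in GP, and *Pde6g*, the inhibitory subunit of the rod phosphodiesterase, at 3.52 in SAG and 0.137 in GP. *Pdc*, the phosducin gene, was at 1.82 FPKM in SAG, against 0.346 in GP, and *Gnat2*, the cone transducin alpha subunit, at 2.44 in SAG and 0.597 in GP. Other genes of the list were highest outside SAG, among them *Guca1a*, at 23.6 FPKM in PF, 7.69 in GP, 4.74 in COR, and 1.83 in SAG. The rhodopsin kinase gene *Grk1* and the rod channel gene *Cnga1* are listed at 0 in SAG.

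Of 26 genes of photoreceptor structure and the visual cycle, 12 reached 1 FPKM, with a median difference of 1.07. Of these 12, 3 were at least 3-fold higher in SAG than in all others, compared with 2.85% of all genes tested. Some of the 12, among them *Rbp3*, reached 1 FPKM in SAG alone, so nothing is read from this count or median. *Abca4*, a retinoid transporter of outer segments, was at 34.3 FPKM in SAG and 1.30 in COR. *Rbp3*, the retinoid carrier between photoreceptors and pigment epithelium, was at 5.40 FPKM in SAG and 0.139 in COR. *Unc119*, a carrier of lipid-modified proteins with wide expression, was at 64.0 FPKM in SAG and 17.7 in PF. *Prph2*, which shapes outer segment discs, was at 0.574 FPKM in SAG.

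For serotonin and melatonin synthesis, 12 of 13 listed genes had a value, and *Asmt* was not analysed here. Among the 10 that are not members, 8 reached 1 FPKM and 1 was at least 3-fold higher in SAG, compared with 2.85% of all genes tested. It was *Maob*, a monoamine oxidase, at 10.8 FPKM in SAG and 2.04 in GP. *Ddc*, which makes serotonin from the product of Tph1, was at 3.62 FPKM in SAG and 5.26 in PF. Of 14 genes for receptors and cAMP response in pinealocytes, 10 reached 1 FPKM and only *Chrnb4*, a nicotinic receptor subunit, passed. *Chrnb4* was at 4.47 FPKM in SAG, against 0.5 in COR. Both counts are a description, and nothing is read from them. *Adrb1*, the receptor for the nightly noradrenaline signal to the gland, was at 0.941 FPKM in SAG, and the melatonin receptor genes *Mtnr1a* and *Mtnr1b* are listed at 0 there.

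**Figure D3:**
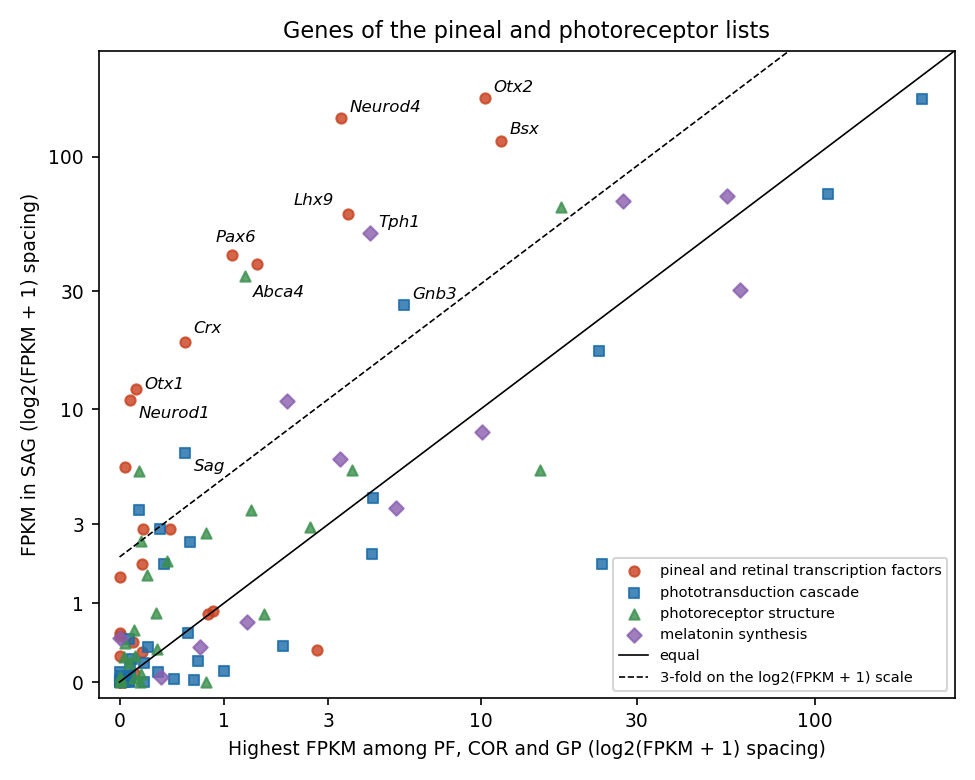
FPKM in SAG (y axis) against the highest FPKM among PF, COR, and GP (x axis) for the genes of 4 lists, members included, both axes spaced as log2(FPKM + 1). The 11 transcription factor genes counted as higher in SAG and *Tph1* lie above the dashed 3-fold line, and most genes of the phototransduction cascade lie near the origin or near the line of equal levels.

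The levels of some of these genes were also taken as a share of the *Otx2* level, with no limit set for calling shares alike or unequal. *Bsx* stood at 68.5% of the *Otx2* level in SAG, 112% in PF, 100% in COR, and 87.7% in GP. *Tph1* stood at 30.1% of *Otx2* in SAG, 41.3% in PF, 18.6% in COR, and 191% in GP. *Crx* stood at 11.2% of *Otx2* in SAG and 13.4% in COR, but 0.948% in PF and 3.85% in GP. *Neurod4* stood at 83.3% in SAG, 77.3% in COR, and 96.5% in GP, but 32.4% in PF. For *Neurod4*, SAG and COR lay close together and PF lay below them. The *Crx* ratios rest on about 4.9 fragments of *Crx* in PF and 1 in GP, too few to place those libraries, and all GP ratios rest on an *Otx2* value of about 19.9 fragments.

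Genes with a like pattern were sought by the Euclidean distance between shares of summed FPKM over the 4 libraries, among 9797 genes that are not members and reached 5 FPKM in at least 1 library. The mean share of the 9 members with any value was 75.5% in SAG, 21.5% in PF, 2.09% in COR, and 0.894% in GP, where *Gngt1* and *Pde6b* raise the PF share. The nearest genes to this mean were *Ccdc113*, a gene of motile cilia, at 11.4 FPKM in SAG and 3.26 in PF, *Mlc1*, a membrane protein gene of astrocytes, at 21.7 and 5.99, and *Edn3*, the endothelin 3 gene, at 46.4 and 11.8. *Dct*, *Zic4*, and *Gnb3* were also among the 15 nearest. The same measure taken against *Otx2* alone was chosen after the values were seen. It gave *Car14*, a membrane carbonic anhydrase, at 105 FPKM in SAG and 5.92 in PF, and *Cplx3*, the complexin of retinal ribbon synapses, at 23.8 and 1.63. *Abca4* was also among the 15 nearest to *Otx2*. With 4 libraries, these distances describe likeness only.

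Markers of other cell types also stood high in SAG, and their part in the members' levels was not tested. Of 16 choroid plexus genes, 14 reached 1 FPKM. Of these 14, 6 were at least 3-fold higher in SAG than in all others, compared with 2.85% of all genes tested. *Kcne2*, *Cldn2*, and *Foxj1* passed the filter through SAG alone. The share of 2.85% also applies to each list that follows, and all of these lists were chosen with earlier results known. Nothing is therefore read from their counts, that of the choroid plexus included. The summed FPKM of the 16 was 5429 in SAG, 601 in PF, 256 in COR, and 280 in GP. Most of the SAG sum was *Ttr*, the transthyretin gene, at 5103 FPKM in SAG, 465 in PF, 141 in COR, and 9.74 in GP. *Aqp1*, *Sostdc1*, *Prlr*, and *Enpp2* were highest outside SAG, with *Aqp1* at 11.9 FPKM in SAG and 53.8 in COR. *Otx2* stood at 3.30% of *Ttr* in SAG, 2.22% in PF, 2.90% in COR, and 2.76% in GP, and what these ratios mean was not tested. None of the 16 genes is listed at 0 in SAG, and *Kl*, a defining gene of the choroid plexus, was at 0.958 FPKM there.

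Of 12 genes of pigment epithelium and pigment cells, 7 reached 1 FPKM. Of these 7, 3 were at least 3-fold higher in SAG than in all others, compared with 2.85% of all genes tested. *Rlbp1* and *Lrat* passed the filter through SAG alone, so nothing is read from this count. The summed FPKM of the 12 was 78.6 in SAG, 15.6 in PF, 5.13 in COR, and 5.23 in GP. *Rlbp1*, the retinaldehyde carrier of pigment epithelium and glia, was at 36.3 FPKM in SAG, against 0.9997 in GP. *Dct*, a melanin pathway enzyme, was at 21.5 in SAG and 5.21 in PF. *Rpe65*, the visual cycle isomerase, and *Tyr*, the tyrosinase that starts melanin synthesis, are listed at 0 in SAG.

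Of 14 pan-neuronal genes, 1 was at least 3-fold higher in SAG, *Snap25*, at 2.21 FPKM and listed at 0 elsewhere. Their summed FPKM was 26.3 in SAG, 87.8 in PF, 23.9 in COR, and 19.2 in GP. The PF sum was mostly *Gap43*, a growth cone gene, at 78.8 FPKM in PF and 8.41 in SAG. Over the 7 neuronal genes that reached 1 FPKM, the median log2(FPKM + 1) difference of SAG was 0.98 from PF, 1.47 from COR, and 1.34 from GP. Over all genes tested in each pair these medians were -0.03, 0.02, and 0.03. *Snap25*, *Syt1*, and *Rbfox3* passed the filter through SAG alone, so nothing is read from the neuronal medians. *Elavl3*, a defining neuronal gene, is listed at 0 in SAG, COR, and GP. Of 9 neuroendocrine genes, 8 reached 1 FPKM and 2 passed, among them *Chgb*, the chromogranin B gene, at 11.9 FPKM in SAG, against 0.0933 in GP. The sums of the 9 were 427 in SAG, 152 in PF, 215 in COR, and 298 in GP. They were mostly *Cpe*, at 402 FPKM in SAG, 131 in PF, 214 in COR, and 296 in GP. *Scg2* went the other way, at 19.0 FPKM in PF and 1.26 in SAG. Of 12 glial genes 11 reached 1 FPKM and 0 passed, and the sums of the 12 were 31.6 in SAG, 151 in PF, 38.0 in COR, and 162 in GP. Of 10 meningeal genes 8 reached 1 FPKM and 2 passed. The sums of the 10 were 260 in SAG, 357 in PF, 105 in COR, and 206 in GP, and *Slc22a6* is listed at 0 in every library.

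The skeletal genes of the labelled cells were present in all libraries. Their summed FPKM over 11 genes was 1191 in SAG, 3191 in PF, 12469 in COR, and 8502 in GP, and 2 of the 11 were at least 3-fold lower in SAG than in all others. *Runx2*, the osteoblast determinant, was at 9.41 FPKM in SAG and from 18.1 to 30.4 elsewhere. Of 7 chondrocyte genes 2 passed, with sums of 3321 in SAG, 110 in PF, 108 in COR, and 2864 in GP. Endothelial and blood genes summed to 21.4 FPKM in SAG, 23.9 in PF, 3.76 in COR, and 3.92 in GP. Of these 9 genes, 5 reached 1 FPKM and 1 passed, *Kdr*, a receptor for vascular endothelial growth factor, at 14.9 in SAG. The sorted antigens were present in SAG, with *Cd200* at 48.1 FPKM and *Itgav*, the gene of CD51, at 6.20. Of the antigens sorted as negative, *Enpep* (6C3) was at 2.74 FPKM in SAG, *Eng* (CD105) at 0.760, and *Tek* (Tie2) at 0.627. *Thy1* was at 0.0283 in SAG and *Ptprc* (CD45) at 0.00475. *Tek* was higher in SAG than in the other libraries.

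**Figure D4:**
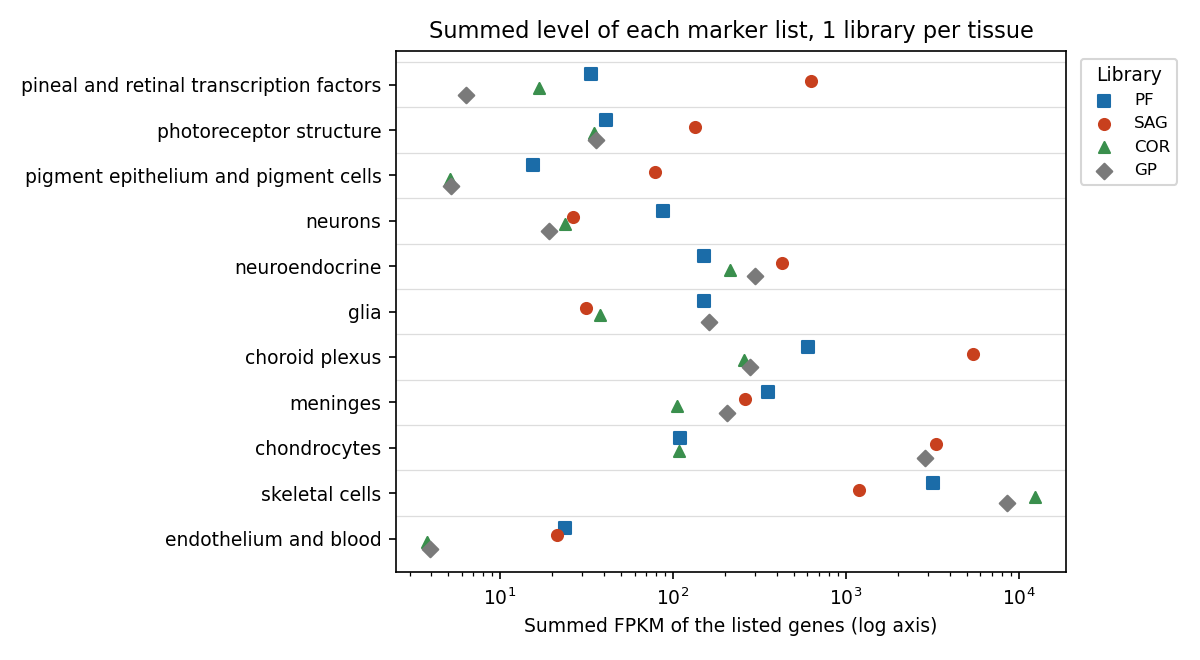
Summed FPKM of the genes of each marker list (y axis) in the 4 libraries, 1 point per library, on a log axis. SAG is highest for the pineal and retinal transcription factors, photoreceptor structure, pigment, neuroendocrine, choroid plexus, and chondrocyte lists, and lowest for the skeletal genes, at 1191, and the glial genes, at 31.6. *Ttr* makes up most of the choroid plexus sum in SAG, and *Cpe* most of the neuroendocrine sum.

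Among the 399 genes at least 3-fold higher in SAG than in all others, PF was the next highest for 37.6%, COR for 24.8%, and GP for 37.6%. The order SAG, PF, COR, GP held for 67 of them, or 16.8%, and for 3 of the 5 members counted as higher, *Otx2*, *Tph1*, and *Sag*.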

How the data were processed

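RNA of sorted CD51+;CD200+ cells was sequenced with paired ends, 1 library per site. According to the methods and the submitters' processing notes, reads were aligned with STAR 2.5.1b to mm9 and quantified by the authors with Cuffdiff of Cufflinks 2.2.1 on an iGenomes gene model. Their deposited files give FPKM for each symbol. The scaling within Cuffdiff, the strand setting, and the number of sequenced fragments are not given in the sources used here. Without counts, counting error could not be computed.

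Samples were grouped by title. The members and gene lists were chosen with earlier results of these data known. Differences were computed as log2(FPKM + 1) for genes whose FPKM reached 1 in a compared library, with a limit of 3-fold. No test was made, as no site has a second library. All members were named. Genes of the other lists were named when they passed the limit with at least 5 FPKM in SAG or when they define their list, and other genes were named after their values were seen. The 15 genes most like the members were found by share of summed FPKM.

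Gene positions and transcript lengths came from the GENCODE annotation of mm9. Promoter windows came from RefSeq (GRCm38.p6) and were placed in mm9 by exact match. The counting step was tested on simulated data. Alternatives tried were another pseudocount, other scalings, filters, and fold limits, and each other library left out. Computation was in Python 3.11.15 (numpy 2.4.6, pandas 2.3.3, matplotlib 3.10.9). Values of some genes of the lists are not reported here.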

Additional observations from a re-analysis of the deposited data

How the results depend on the processing

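With a pseudocount of 0.1, 706 genes in all and 6 of the phototransduction cascade, members included, were at least 3-fold higher in SAG than in all 3 other libraries, against 399 and 3, and the log2 differences of *Aanat* and *Isl2* passed the limit, at 2.51 and 2.87. *Aanat* is then still kept out of the count by the filter on low values. With a 2-fold limit these counts were 771 and 6. With a 10-fold limit they were 64 and 0, and 3 members passed against PF and 3 against all other libraries, in place of 5. The members' count was 5 under median-ratio scaling, quantile normalization, values relative to *Gapdh*, and both other filters, and with each library other than SAG left out in turn, a choice made after the data were seen. On this scale a gene below 1 FPKM throughout cannot reach 3-fold, so the count without the filter says nothing of stability. Without PF, COR, or GP, the counts over all genes ran from 437 to 529, those of the cascade from 3 to 4, and those of the transcription factors from 11 to 12, against 11. Division by *Gapdh* moved the median of all genes by more than the other scalings did, to -0.51 for SAG against PF. No paired analysis was possible because no tissue has a second library. The shallow PF library limits the precision of low values there, and tissue and library cannot be told apart.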
